A study of Mus musculus with 39 samples.

Results

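The histone deacetylases of class I and class II were followed at the transcript level in mouse oocytes, 2-cell embryos and cumulus cells. The authors describe these 2 classes as the targets of trichostatin A (TSA). The 10 genes Hdac1 to Hdac10 were listed by name, and a probe belonged to one of them when its transcript accession led to that symbol in the RefSeq mouse annotation. Of the 10 genes, 9 had a probe, out of 16535 genes with a symbol, and they had 13 probes among the 41174 on the array. No probe matched Hdac1, which is not analysed here. The A_51_P403234 probe of Hdac7 was not well above background on any of the 39 arrays, so no fold change is given for it and 12 probes carry the values below.

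The series compared reprogramming after somatic cell nuclear transfer (SCNT) with fertilization, on 1-colour Agilent arrays. All material was (B6xDBA/2)F1. OC were unfertilized metaphase II oocytes (7 arrays), IVF were 2-cell embryos from in vitro fertilization (6 arrays), TSA(–) were untreated 2-cell embryos cloned from cumulus cells (8 arrays), and TSA(+) were such clones kept in 5 nM TSA for 8 h from activation (6 arrays). Spi-C NT were clones injected at the pronuclear stage with Spi-C mRNA at 1.0 mg/ml (4 arrays) or 0.1 mg/ml (4 arrays), and Cumulus were the nuclear donor cells (4 arrays). Embryos were cultured for 24 h, and each array held a pool of 10 oocytes or embryos or of 500 cumulus cells. RNA was amplified in 2 rounds before labelling, and TSA was present for only the first 8 h of culture.

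Histone deacetylases remove acetyl groups from lysines of histones and other proteins. Class I enzymes are mostly nuclear and work inside corepressor complexes, class IIa enzymes shuttle between nucleus and cytoplasm and act with MEF2 transcription factors, and class IIb enzymes act largely on cytoplasmic substrates such as tubulin and polyamines. TSA blocks their catalytic site, and the arrays measured their mRNA, not their activity.

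Values are log2 intensities relative to the 75th percentile of the array, so a level can be compared between groups for 1 probe but not between probes. The arrays were separate pools, and p-values measure the spread between these pools. Oocyte marker genes were well above background on every OC and embryo array (10 of 10 probes). Of those 10 probes 5 were above background on no Cumulus array. The summed level of cumulus markers was 7.10 to 7.51 in Cumulus, 0.34 to 1.98 in OC, -0.82 to -0.25 in IVF and -2.31 to -0.60 in the cloned embryos. Single cumulus markers varied: of 14 probes 9 were higher in Cumulus than in OC and 3 lower (limma, adjusted p under 0.01). Among all probes 23.4% were higher and 44.4% lower. On no Cumulus array were 2 of the 14 well above background. Cumulus and Spi-C NT arrays came from another scanner model and other scan days than the remaining groups, so for them batch and group cannot be told apart. Each pool held a set number of oocytes, embryos or cumulus cells, but no count of other cells in a pool is given. For such other cells, fewer cells and less RNA per cell cannot be told apart either.

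The promoters of 4 genes are shown because Hdac5 and Hdac6 were higher, and Hdac4 and Hdac9 (on A_52_P411780) lower, in the 2-cell embryo than in the oocyte. Each is the 250 bases before a RefSeq start in GRCm38.p6, written 5′ to 3′, with capitals on matches in either strand to the GC box (GGGCGG), the CCAAT box (CCAAT), the TATA box (TATAAA) or the E-box (CACGTG). RefSeq promoters were found for 7 of the 10 genes, and of the 2 starts listed for Hdac9 the first is shown.
Hdac5, chr11:102230173-102230422, minus strand: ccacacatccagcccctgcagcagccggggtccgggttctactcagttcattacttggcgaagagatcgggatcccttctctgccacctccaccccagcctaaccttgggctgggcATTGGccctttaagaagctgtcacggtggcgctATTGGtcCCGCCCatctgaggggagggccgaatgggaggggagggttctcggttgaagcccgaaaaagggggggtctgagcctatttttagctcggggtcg
Hdac6, chrX:7947890-7948139, minus strand: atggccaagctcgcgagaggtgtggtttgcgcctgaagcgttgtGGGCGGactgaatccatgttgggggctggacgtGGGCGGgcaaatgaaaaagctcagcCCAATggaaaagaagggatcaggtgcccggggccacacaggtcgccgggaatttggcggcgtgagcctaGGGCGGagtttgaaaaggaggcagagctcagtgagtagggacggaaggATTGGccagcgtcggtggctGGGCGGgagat
Hdac4, chr1:92180342-92180591, minus strand: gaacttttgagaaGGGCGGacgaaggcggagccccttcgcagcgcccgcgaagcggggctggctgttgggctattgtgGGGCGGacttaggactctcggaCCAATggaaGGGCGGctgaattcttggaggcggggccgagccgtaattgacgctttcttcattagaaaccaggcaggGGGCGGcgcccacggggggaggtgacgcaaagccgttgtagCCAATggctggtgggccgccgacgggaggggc
Hdac9, chr12:34917096-34917345, minus strand: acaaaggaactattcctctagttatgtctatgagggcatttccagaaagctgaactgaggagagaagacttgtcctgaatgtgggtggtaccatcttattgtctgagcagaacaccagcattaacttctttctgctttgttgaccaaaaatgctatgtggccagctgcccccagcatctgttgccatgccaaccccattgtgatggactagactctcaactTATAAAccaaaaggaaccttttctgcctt
The Hdac6 and Hdac4 windows each held 4 GC boxes and 2 CCAAT boxes, and the Hdac5 window held 1 and 2. The Hdac9 window held none of either and 1 TATA box, and the window of its second start held none of the 4 motifs. Among all 32851 promoters of this length, 32.7% held a GC box, 33.8% a CCAAT box, 12.4% a TATA box and 6.02% an E-box. Whether these motifs have a part in the differences between embryo and oocyte was not tested. A match is a description and not a binding site, and no match says only that these letters are not in this window.

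**Figure D1:**
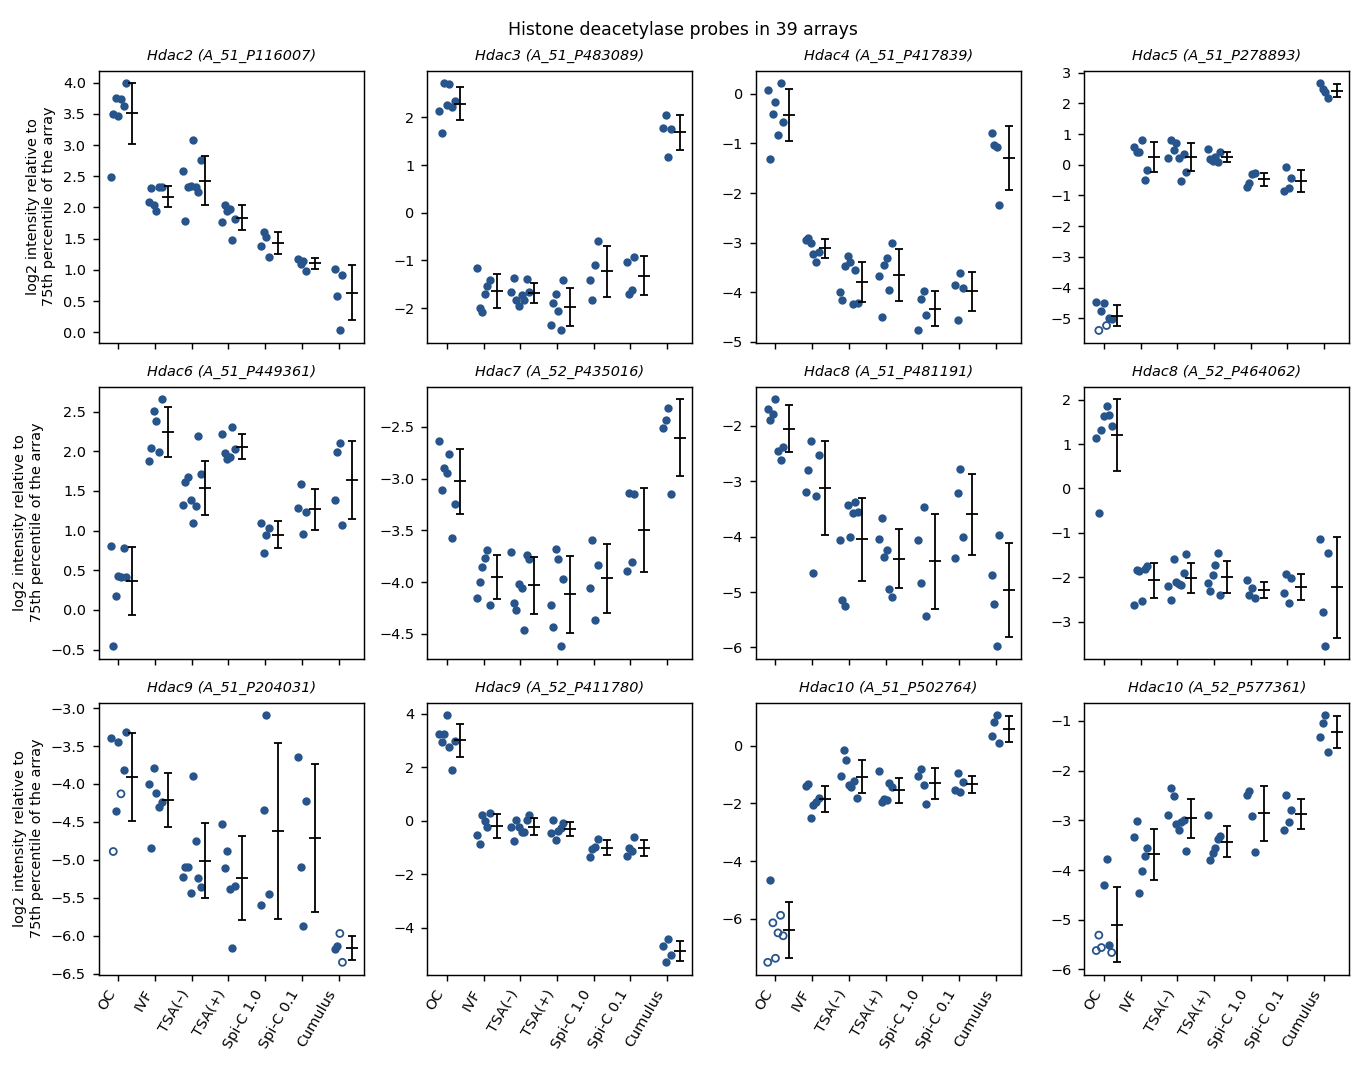
Log2 intensity relative to the 75th percentile of the array (y axis, a separate scale in each panel) for 12 probes of 9 histone deacetylase genes in 7 groups (x axis). Points are single arrays, open where the probe was not well above background, and bars are the mean and SD; Hdac3 and Hdac4 were low in all embryo groups and Hdac5 was lowest in OC.

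The first comparison asked how the transcripts differed between the oocyte and the 2-cell embryo after fertilization. Transcripts of Hdac2, Hdac3, Hdac4, Hdac7, Hdac8 and Hdac9 were lower in IVF than in OC, and those of Hdac5, Hdac6 and Hdac10 were higher, except that 1 of the 2 Hdac10 probes was lower when normexp background correction was used. In all, 11 of 13 probes passed an adjusted p under 0.01 (limma, Benjamini-Hochberg over 39541 probes), 4 higher and 7 lower, the 7 including the Hdac7 probe below background, whose call is counted but not described. Of all probes tested 66.1% passed, 23.3% higher and 42.7% lower, so a call was the common outcome in this comparison. Of 14 cumulus marker probes 8 were lower in IVF than in OC and 1 was higher. Of 6 blood marker probes 1 was higher, 1 was lower and 4 were not called (median -0.79). The higher one was of Lyz2 (log2 6.47), well above background on 1 of 7 OC arrays. The part of such cells in the differences was not tested. With median centring the split was 3 higher and 9 lower. The median probe itself differed by -0.88 on the log2 scale, by -1.56 with median centring and by -0.29 with quantile normalization. Relative to that median, Hdac3 stood at -3.06, Hdac4 at -1.81, Hdac5 at 6.05 and Hdac6 at 2.76. Hdac2 stood at -0.46 and Hdac7 at -0.04. Hdac8 stood at -2.40 (A_52_P464062) and -0.19 (A_51_P481191), and Hdac9 at -2.31 (A_52_P411780) and 0.57 (A_51_P204031). Hdac10 stood at 5.41 (A_51_P502764) and 2.30 (A_52_P577361). With quantile normalization Hdac2 stood at 0.03, Hdac7 at -1.37, A_51_P481191 at -1.41 and A_51_P204031 at -0.73.

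Among the class I genes, Hdac3, a catalytic subunit of nuclear corepressor complexes, had levels on A_51_P483089 from 1.67 (median 2.26) to 2.72 in OC and from -2.08 (median -1.63) to -1.15 in IVF. The groups did not overlap, and Hdac3 was lower by 15.3-fold (log2 -3.94, SE 0.20, adjusted p 5.13e-17). Hdac2, a subunit of the NuRD, Sin3 and CoREST complexes, ran on A_51_P116007 from 2.48 (median 3.63) to 3.99 in OC and from 1.94 (median 2.19) to 2.33 in IVF. Its fall of 1.34 on the log2 scale (log2 -1.34, SE 0.21, adjusted p 1.63e-06) was -0.46 relative to the median probe, and with quantile normalization it was -0.26 and no longer passed (adjusted p 0.25). Hdac8, a class I enzyme that deacetylates cohesin, fell by 3.28 on its A_52_P464062 probe (log2 -3.28, SE 0.34, adjusted p 9.01e-10), from 1.2 ± 0.81 (SD, n = 7) in OC to -2.07 ± 0.39 (SD, n = 6) in IVF. The other Hdac8 probe, A_51_P481191, had a difference of -1.07 (SE 0.37, adjusted p 0.0118) and overlapping groups, and it passed without OC replicate 6 (adjusted p 0.0089), IVF replicate 3 (0.00566) or IVF replicate 6 (0.00876).

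Within class IIa the genes went in opposite directions. Hdac5, a partner and repressor of MEF2 factors, ran on A_51_P278893 from -5.39 (median -4.99) to -4.46 in OC, where 5 of 7 arrays were well above background, and from -0.50 (median 0.42) to 0.82 in IVF. It was higher by 36-fold in IVF (log2 5.17, SE 0.22, adjusted p 1.05e-18) with no overlap, and the difference was 2.56 with normexp. Hdac4, the closely related class IIa enzyme, ran on A_51_P417839 from -1.32 (median -0.41) to 0.22 in OC and from -3.40 (median -3.10) to -2.91 in IVF, a difference of -2.69 (SE 0.26, adjusted p 2.41e-10). The A_52_P411780 probe of Hdac9 ran from 1.89 (median 2.99) to 3.95 in OC and from -0.87 (median -0.12) to 0.30 in IVF, lower by 9.12-fold (log2 -3.19, adjusted p 1.1e-12). The Hdac9 probe A_51_P204031 did not pass (-0.31, SE 0.27, adjusted p 0.298), but it passed with quantile normalization (-1.02, adjusted p 0.000989), median centring (-0.99, adjusted p 0.00111) and normexp (-0.99, adjusted p 3.72e-09). Hdac7 on A_52_P435016 differed by -0.92 (SE 0.18, adjusted p 5.02e-05), which was -0.04 relative to the median probe.

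Both class IIb genes were higher in IVF. Hdac6, the tubulin deacetylase, ran on A_51_P449361 from -0.46 (median 0.42) to 0.80 in OC and from 1.88 (median 2.21) to 2.66 in IVF, a 3.67-fold difference without overlap (log2 1.88, SE 0.21, adjusted p 2.54e-09). Hdac10, a polyamine deacetylase, was well above background on 1 of 7 OC arrays on A_51_P502764 and on all 6 IVF arrays, and the measured values went from -6.37 ± 0.97 (SD, n = 7) to -1.84 ± 0.43 (SD, n = 6; log2 4.53, SE 0.35, adjusted p 2e-12). With most OC arrays at background this difference is not an exact fold, and it was 1.1 with normexp. The second Hdac10 probe, A_52_P577361, rose by less (log2 1.42, SE 0.28, adjusted p 5.26e-05), and it turned to -0.40 when the background was corrected with normexp. Within the 4 scan days that held both groups, Hdac3 differed by -4.56 to -2.82, Hdac5 by 4.59 to 5.97, Hdac6 by 1.76 to 2.34 and the A_52_P577361 probe of Hdac10 by 0.03 to 1.97.

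TSA(–) clones were compared with the same OC arrays. All 13 probes passed, 4 higher and 9 lower, the 9 including the Hdac7 probe below background. Without it 12 of 12 passed, 4 higher and 8 lower. Of all probes tested 70.3% passed (23.5% higher and 46.8% lower). The median probe differed by -1, or by -1.66 with median centring and -0.31 with quantile normalization. Hdac3 was 15.7-fold lower in TSA(–) than in OC (log2 -3.97, SE 0.18, adjusted p 5.84e-18), Hdac4 was 10.3-fold lower (log2 -3.36) and Hdac5 was 35.7-fold higher (log2 5.16, SE 0.20, adjusted p 1.44e-19). Hdac6 was 2.25-fold higher (log2 1.17, SE 0.19, adjusted p 3.12e-06), but at log2 0.51 with median centring, where the call was lost (adjusted p 0.0305). With normexp the Hdac5 difference was 2.58. Hdac10 on A_51_P502764, with 1 missing TSA(–) value and 6 of 7 OC arrays not well above background, passed at log2 5.30, and at 1.74 with normexp. Hdac2 overlapped between the groups and differed by -1.08 (limma adjusted p 1.34e-05), which was -0.08 relative to the median probe. Its direction and call stayed in 13 of 14 alternatives other than left-out arrays. With quantile normalization it was 0.12 and did not pass (adjusted p 0.58).

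The donor cells asked a further question, which of these levels distinguish a somatic cell from the oocyte. In Cumulus against OC 10 of 13 probes passed, 4 higher and 6 lower, against 67.8% of all probes (23.4% higher and 44.4% lower). Without the Hdac7 probe below background 9 of 12 passed, 4 higher and 5 lower. The median probe differed by -1.15, or by -0.94 with median centring and -0.25 with quantile normalization. The summed level of blood cell markers was 4.48 to 6.75 in Cumulus and -4.13 to 0.50 in all other groups, with 4 of their 6 probes well above background on every Cumulus array, and their part in these differences was not tested. Hdac5 was 2.66, 2.45, 2.37 and 2.16 in the Cumulus arrays, above every other group, and 159-fold higher than in OC (log2 7.31, SE 0.24, adjusted p 1.38e-21), or log2 4.67 with normexp. Hdac9 on A_52_P411780 was -4.68, -5.29, -4.43 and -5.03 in Cumulus and 232-fold lower than in OC (log2 -7.86, SE 0.27, adjusted p 4.39e-21), or log2 -6.33 with quantile normalization and -6.27 with normexp. Both Hdac10 probes were higher, at log2 6.95 (SE 0.39) and 3.88 (SE 0.32) against OC levels well above background on 1 and 3 of 7 arrays, and at 3.25 and 1.48 with normexp. Hdac3 was 1.78, 2.04, 1.17 and 1.76 in Cumulus, overlapping OC (difference -0.60, SE 0.22, adjusted p 0.0151), and Hdac4 differed by -0.86 (SE 0.30, adjusted p 0.0101). The Hdac4 difference fell on either side of the threshold with small changes, passing without OC replicate 2 (adjusted p 0.00238), OC replicate 5 (0.00805) or Cumulus replicate 1 (0.00582), and Hdac3 passed without OC replicate 2 (0.00441) or Cumulus replicate 2 (0.00922).

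**Figure D2:**
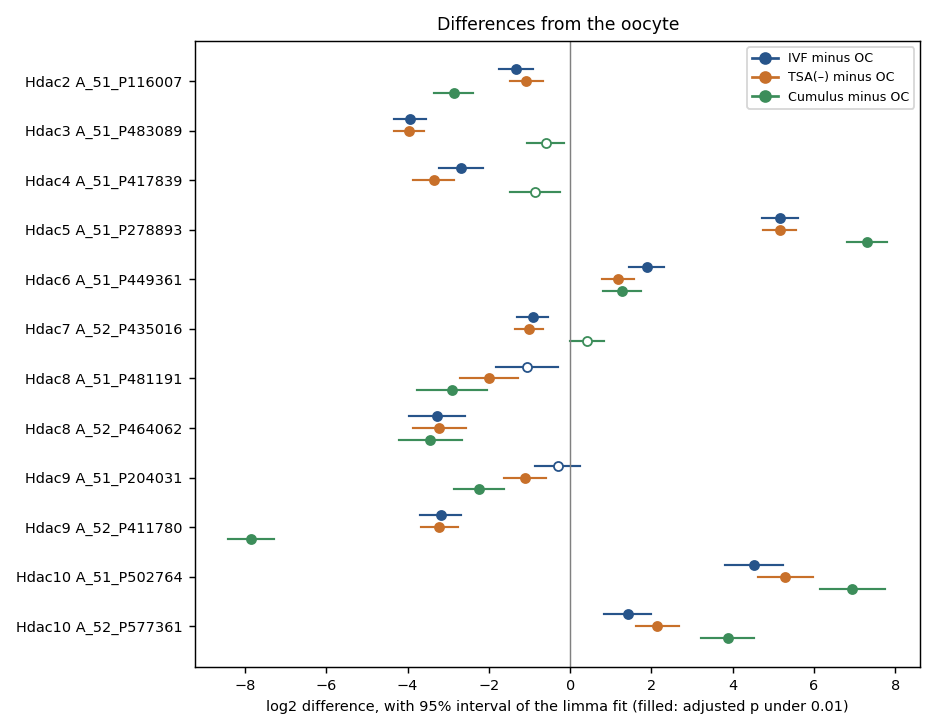
Log2 differences from OC for 12 probes (y axis), in IVF, TSA(–) and Cumulus; points are estimates, lines are 95% intervals and filled points passed an adjusted p under 0.01. Hdac5, Hdac6 and Hdac10 lie to the right of 0 in all 3 comparisons (with normexp the A_52_P577361 probe of Hdac10 was at -0.40 in IVF and -0.01 in TSA(–)), while Hdac3 is near -4 in embryos and -0.60 in Cumulus.

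Set directly against their donors, TSA(–) clones had 9 of 13 probes called, 3 higher and 6 lower, against 54.9% of all probes, 30.5% higher and 24.5% lower (with median centring 2 members higher and 7 lower). The median probe differed by 0.11, or by -0.76 with median centring. Hdac3 was 10.3-fold lower in the clones than in Cumulus (log2 -3.37, SE 0.21, adjusted p 1.99e-14), and Hdac4 was 5.64-fold lower (log2 -2.50, SE 0.29). Hdac9 on A_52_P411780 was 24.9-fold higher in the clones (log2 4.64, SE 0.27, adjusted p 2e-15, and 3.28 with normexp), and Hdac5 was 4.46-fold lower (log2 -2.16, SE 0.24). In a fit of all 7 groups, OC and Cumulus were the highest for Hdac3 and did not differ past the threshold (0.60, adjusted p 0.0197), followed by a step of 2.92 to the embryos (adjusted p 4.82e-12). Hdac9 on A_52_P411780 stepped down by 3.19 from OC to the embryos and by a further 3.84 to Cumulus. Neighbouring embryo groups did not differ past the threshold for any of the 12 probes, and no neighbouring pair of groups did for Hdac6, Hdac7, Hdac8 on A_51_P481191 or Hdac9 on A_51_P204031.

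Between cloned and fertilized 2-cell embryos the single call, Hdac6, depended on the fit. In TSA(–) against IVF 1 of 13 probes passed, against 18.8% of all probes (8.48% higher and 10.3% lower). Hdac6 ran from 1.09 (median 1.49) to 2.19 in TSA(–) and from 1.88 (median 2.21) to 2.66 in IVF. The groups overlapped, and Hdac6 was lower in TSA(–) by 1.64-fold (log2 -0.71, SE 0.20, adjusted p 0.00758). This call was lost without IVF replicate 3, 4 or 6 or TSA(–) replicate 1, 2, 4, 5 or 6 (log2 -0.72 to -0.63, adjusted p 0.0102 to 0.027), with slide as a block (-0.79, adjusted p 0.0448), with scan day as a block (-0.75, adjusted p 0.0107) and with median centring (-0.69, adjusted p 0.0226). Within the 4 scan days with both groups the Hdac6 difference was -1.05 to -0.27. The other 11 probes above background differed by -0.93 to 0.77. With Hdac6, 6 of the 12 had an unadjusted p under 0.05 (limma), as had 14586 of all 39541 probes tested. Besides Hdac6 these were Hdac4 (-0.67), Hdac8 on A_51_P481191 (-0.93), Hdac9 on A_51_P204031 (-0.80) and both Hdac10 probes (0.77 and 0.73).

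The TSA treatment itself was tested by TSA(+) against TSA(–). No member passed (limma, adjusted p), 2 of the 12 probes had an unadjusted p under 0.05, and Tukey's HSD also called 0. Of all probes 0.137% passed, which is 54 probes (0.0430% higher and 0.0936% lower). Hdac2 ran from 1.48 (median 1.88) to 2.04 in TSA(+) and from 1.78 (median 2.34) to 3.08 in TSA(–), a difference of -0.60 (SE 0.20, 95% interval -1.01 to -0.18, adjusted p 0.13), and within 3 scan days it was -1.16 to 0.09 and on the 1 shared slide -0.01. Hdac6 ran from 1.90 (median 2.00) to 2.30 in TSA(+), a difference of 0.53 from TSA(–) (SE 0.20, 95% interval 0.12 to 0.93, adjusted p 0.174), and within 3 scan days it was -0.22 to 0.74. Hdac5 was nearest to 0, at 0.01 (95% interval -0.42 to 0.44). Over the 12 probes the differences ran from -0.60 to 0.53 and their intervals reached from -1.19 to 0.93. The median probe differed by -0.11, or by 0.08 with median centring.

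TSA(+) and IVF were compared on the same IVF arrays as above. In this pair 1 of 13 probes passed, against 18.9% of all probes (7.82% higher and 11.1% lower), and 2 passed without TSA(+) replicate 2. The median probe differed by -0.23, or by -0.02 with median centring. The probe called was the dim Hdac9 probe A_51_P204031, from -6.16 (median -5.23) to -4.53 in TSA(+) and from -4.84 (median -4.18) to -3.79 in IVF (log2 -1.02, SE 0.28, adjusted p 0.00601), with overlapping groups. The call was lost without IVF replicate 1, 3, 4, 5 or 6 or TSA(+) replicate 4, 5 or 6 (log2 -1.04 to -0.84, adjusted p 0.0101 to 0.0239), with slide as a block (-0.91, adjusted p 0.0411), scan day as a block (-1.06, adjusted p 0.0105), the replicate number as a block (-1.02, adjusted p 0.0123), quantile normalization (-0.68, adjusted p 0.0619), median centring (-0.81, adjusted p 0.0255) and all 7 groups in the fit (-1.02, adjusted p 0.0288). The brighter Hdac9 probe differed by -0.12 (95% interval -0.64 to 0.40). Without the Hdac7 probe below background, the probes not called differed by -1.28 to 0.30. The largest of these differences was that of Hdac8 on A_51_P481191 (log2 -1.28, 95% interval -2.07 to -0.48, limma adjusted p 0.0132). Hdac6, which was lower in TSA(–), differed by -0.18 in TSA(+) (95% interval -0.62 to 0.25); the 2 differences share the IVF arrays, and their own contrast is the TSA(+) against TSA(–) value above.

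**Figure D3:**
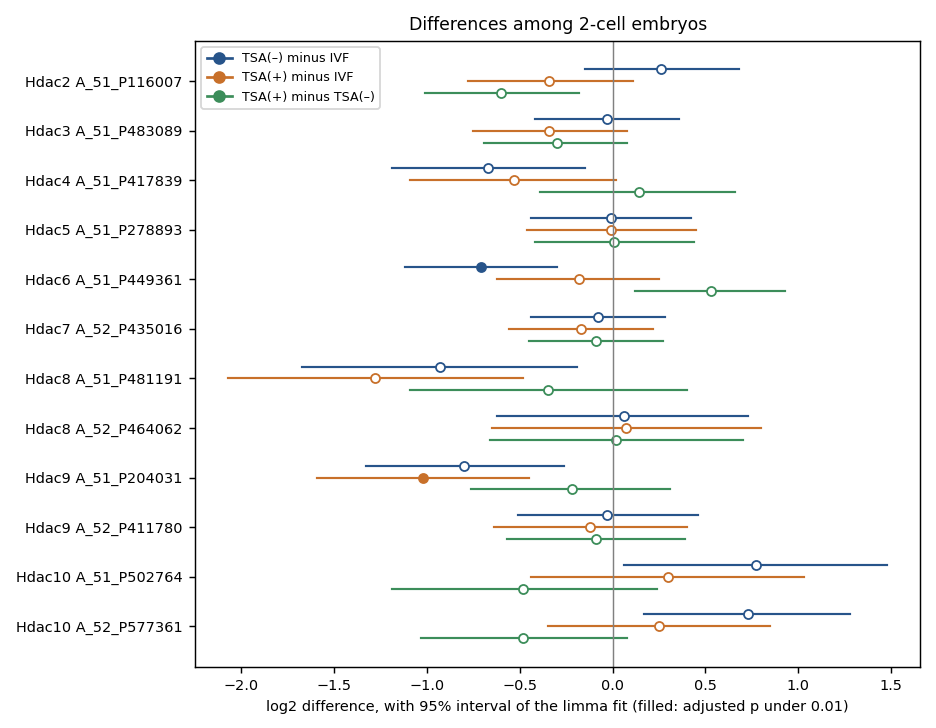
Log2 differences among IVF, TSA(–) and TSA(+) 2-cell embryos for 12 probes (y axis), with 95% intervals; filled points passed an adjusted p under 0.01. Only Hdac6 in TSA(–) minus IVF and the A_51_P204031 probe of Hdac9 in TSA(+) minus IVF are filled.

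Injection of Spi-C mRNA was compared with TSA(–) over both concentrations. Of the 2 array probes of Spic itself, A_51_P389885 was lower in the embryos labelled Spi-C NT than in TSA(–) (log2 -0.53, limma adjusted p 0.00814). The other was not called (median of the 2 probes -0.51), and whether either can detect the injected mRNA is not known here. Of 13 member probes 3 passed, all lower, against 20.7% of all probes (11.5% higher and 9.19% lower). Hdac2 was 1.39, 1.61, 1.52 and 1.21 at 1.0 mg/ml and 1.18, 1.1, 1.15 and 0.98 at 0.1 mg/ml, all below the lowest TSA(–) array (1.78), and lower by 2.24-fold (log2 -1.16, SE 0.13, adjusted p 2.37e-07). Hdac5 was lower by 1.69-fold (log2 -0.75, SE 0.19, adjusted p 0.00333) and Hdac9 on A_52_P411780 by 1.74-fold (log2 -0.80, SE 0.17, adjusted p 0.000709), both with overlapping arrays. The Hdac9 call was lost with the replicate block (log2 -0.64, adjusted p 0.0154). The Spi-C NT and TSA(–) arrays differ in scanner and scan day, so the part of either in these 3 differences cannot be told apart from the injection.

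Between the Spi-C concentrations no member passed (limma, adjusted p 1), 1 of 12 probes had an unadjusted p under 0.05, and Tukey's HSD called 0. Over all probes 0.00506% passed. The 12 differences ran from -0.85 to 0.33, with intervals from -1.91 to 1.07. Hdac2 did not overlap between the concentrations (difference 0.33, 95% interval -0.06 to 0.72), and the share of all probes without overlap was not counted.

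**Figure D4:**
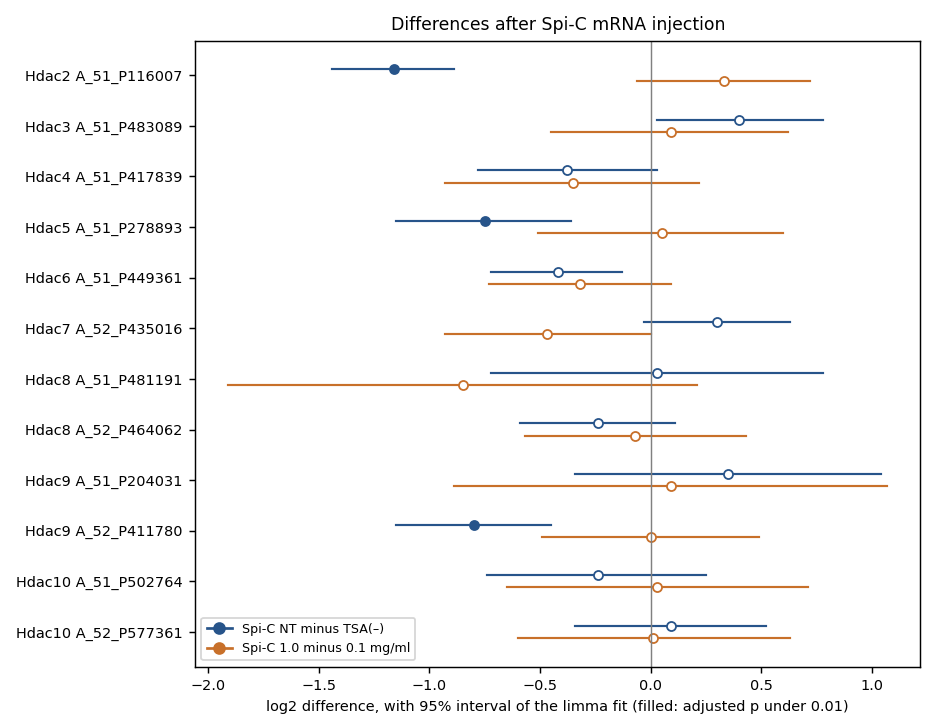
Log2 differences for 12 probes (y axis) of Spi-C NT minus TSA(–) and of 1.0 minus 0.1 mg/ml Spi-C mRNA, with 95% intervals; filled points passed an adjusted p under 0.01. Hdac2, Hdac5 and the A_52_P411780 probe of Hdac9 are filled on the lower side.

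The subunits and partners of these enzymes were read in IVF against OC from lists of known complexes, beside the 23.3% of all probes that were higher and 42.7% that were lower. Each gene named stands for 1 probe, and probes of 1 NuRD, 2 Sin3 and 1 CoREST gene were called in both directions. Of 18 NuRD probes 2 were higher and 10 lower (median -1.05, against -0.88 over all probes), with Mta2 higher (log2 2.85) and Mta3 lower (log2 -3.59). Of 24 Sin3 probes 7 were higher and 13 lower (median -1.51), with Suds3 higher (log2 3.58) and Sap30 lower (log2 -4.09). Of 15 CoREST probes 3 were higher and 7 lower (median 0.21), with the scaffold gene Rcor1 higher (log2 4.94, well above background on 1 of 7 OC arrays) and Kdm1a, the histone demethylase of that complex, lower (log2 -4.40). Among class IIa partners 8 of 33 probes were higher and 13 lower (median -0.39), with Mef2a higher (log2 6.74, well above background on 1 of 7 OC arrays) and the gene Ywhab lower (log2 -4.13). Among class IIb partners 3 of 18 were higher and 11 lower (median -0.84), with the tubulin gene Tuba1a higher (log2 7.22) and Hsp90ab1 lower (log2 -3.95). Among 17 probes of acetyltransferases, the opposing enzymes, 6 were higher and 4 lower (median 0.49), with Gtf3c4 higher (log2 8.83) and Hat1 lower (log2 -5.18).

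The genes whose levels lay closest to those of the 3 members with the widest range of group means were named by the root mean square log2 difference after centring, among 18616 candidate probes. They were Eif4e3 (0.30) and Chek1 (0.33) for Hdac9 over 39 arrays, where the median candidate was at 2.21. They were Tmc6 and Ctsz (both 0.50) for Hdac5 over 39 arrays, where the median was 2.64. For Hdac10 on A_51_P502764 they were Lrrc45 (0.45) and Otulin (0.57) over the 38 arrays with a value, where the median was also 2.64.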

How the data were processed

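RNA of pooled oocytes, embryos or cumulus cells had been hybridised to 1-colour Agilent 44K arrays, 39 in all. The deposited scanner files hold the intensity of each spot, and the authors' series table holds log2 values. Per the labels the files came from Agilent Feature Extraction 9.5.3.1; the headers of the Cumulus and Spi-C NT arrays name major version 10. Each processed intensity was divided by the 75th percentile of its array and log2 transformed. Outlier spots (1820 values) were excluded from the fits, and repeated spots were averaged. A probe was tested when its intensity reached 10 on any IVF or SCNT array, Spi-C NT included (39541 of 41174). The authors' own table was within 0.01 of these values for 74.6% of entries after centring on the probe median, and served as an alternative.

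Group means were fitted with limma 3.58.1 in R 4.3.3, in 1 fit of OC, IVF, TSA(–), TSA(+) and Cumulus and 1 of IVF, the SCNT groups and Spi-C NT, with Benjamini-Hochberg adjustment over all probes and a threshold of 0.01. Intervals are 95% intervals of the fit. Probes were named by accession through RefSeq (GRCm38.p6), and 23374 probes had a symbol. A probe not well above background in either group has no fold. The members and gene lists were chosen with earlier results of these data known. Every member probe is named, and of each list the gene in each direction with the largest difference among called probes detected above background throughout the group with the higher level. The nearest genes were taken for the 3 members with the largest range of group means, by the brightest probe of each member. The code was tested on simulated data. The intensity at the 75th percentile was 271.3 to 512.3 in OC, 997.2 to 1364.4 in IVF and 792.0 to 1101.0 in Cumulus. It was 1204.1 to 1587.4 in TSA(–) and TSA(+), and 2115.4 to 2666.5 in Spi-C NT. A signal of equal intensity therefore lies at a higher scaled level in OC than in the embryos. Probes well above background were 48.71 to 60.01% in OC and 69.64 to 76.31% in IVF. The number of arrays limits the precision. Replicate numbers did not pair the arrays (only 1 same-numbered pair, of TSA(–) and OC, correlated over 0.1). Alternatives were other scalings, filters, fits, blocks and left-out arrays. Probe position within the transcript and probe sequence were not analysed here. Some further gene lists are not reported here.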

Additional observations from a re-analysis of the deposited data

Results flagged for a closer look

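Among 84 sets of arrays (12 probes in 7 groups), 3 held an array far from the others, or 3.6%, where chance gives about 1 in 20. Hdac2 on A_51_P116007 was 2.48 in OC replicate 1, the lowest of 7, with the next array at 3.47. Hdac8 on A_52_P464062 was -0.56 in OC replicate 2, the lowest of 7, with the next at 1.13. Hdac9 on A_51_P204031 was -3.90 in TSA(–) replicate 5, the highest of 8, with the next at -4.75.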

How the results depend on the processing

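Of 1683 alternative values for the 62 member differences recomputed, 1602 kept their direction and side of the threshold, 33 lost the call, 25 gained it and 23 changed sign. The counts for IVF and TSA(–) against OC, TSA(+) against TSA(–), TSA(–) against Cumulus and between Spi-C concentrations stayed within 1.5 times of the reported count in all alternatives. Arrays left out in turn gave 0 to 1 calls in TSA(–) minus IVF and 0 to 2 in TSA(+) minus IVF.

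In TSA(–) minus IVF the count was 0 with median centring, with slide and with scan day as a block, 3 with normexp and 4 at an adjusted p under 0.05. In TSA(+) minus IVF it was 0 with quantile normalization, median centring, all 7 groups fitted, slide, scan day or replicate block and averaged probes, and 2 with normexp, the well above background filter and an adjusted p under 0.05. Cumulus minus OC had 6 of 9 genes with averaged probes, and Spi-C NT minus TSA(–) had 6 with normexp. The replicate block gave 11 calls in IVF minus OC, 13 in TSA(–) minus OC, 10 in Cumulus minus OC, 9 in TSA(–) minus Cumulus, 1 in TSA(–) minus IVF, 2 in Spi-C NT minus TSA(–) and 0 in the other comparisons, and apart from the calls named beside their results it changed no call. The cause of these moves was not tested.

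With normexp, Hdac10 on A_52_P577361 was -0.40 in IVF minus OC and -0.01 in TSA(–) minus OC, Hdac7 was -0.17 in Cumulus minus OC, and Hdac9 on A_51_P204031 was -0.14 in TSA(–) minus Cumulus. With quantile normalization Hdac2 was 0.12 in TSA(–) minus OC. In TSA(+) minus TSA(–), Hdac5 was 0.00 with quantile normalization and -0.07 with the replicate block, and -0.11 to 0.08 with arrays left out. Hdac7 was 0.11 with quantile normalization, 0.10 with median centring and 0.04 with the slide block, and -0.18 to 0.01 with arrays left out. Hdac9 was 0.05 on A_51_P204031 with quantile normalization and 0.10 on A_52_P411780 with median centring. Hdac8 on A_52_P464062 was -0.09 to 0.10 with arrays left out.

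The same filter with outlier spots left out before it was chosen after seeing the data, and it changed no call of a member. Tukey's HSD gives no value for both Spi-C concentrations pooled. Dim probes limit Hdac7, Hdac9 on A_51_P204031 and both Hdac10 probes in OC.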
